A study of Rattus norvegicus with 18 samples.

Results

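Normoxic cultures of the rat gliosarcoma line 9L were compared between 2 lengths of incubation. The samples were chosen by their titles: 3 arrays of cultures held at about 20% O2 for 16 h and 3 arrays of cultures held at about 20% O2 for 6 h, 6 of the 18 arrays of the series. 9L cells came from a brain tumour of Fischer rats and were grown in MEM with 12% newborn calf serum, passaged on a twice-weekly schedule, and were washed, detached with trypsin and lysed after the incubation. The labels name no genetic change and no added agent in either group. The other arrays are of hypoxic cultures (0.2% O2) of the same lengths, 3 each, and of laser-captured regions of 9L tumours. The hypoxic cultures serve here as a further comparison of 16 h against 6 h. They carry the same culture numbers as the normoxic ones and also differ in the length of hypoxia. The tumour arrays enter only the fit of all 18 arrays and the closing description of a probe set without a gene. The 16 h cultures carry the numbers 22, 28 and 29 and the 6 h cultures the numbers 6, 13 and 26, with different letter codes in their titles. No culture was sampled at both times, so the length of incubation and the set of cultures cannot be told apart, and "16 h against 6 h" names the groups and not a cause. Nothing in the labels tells whether the 3 arrays of a group stem from separate experiments, so p-values measure the spread between these arrays, which may be technical.

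Cultured tumour cells draw on the glucose, amino acids and serum factors of their medium, and they divide, attach and crowd while they are kept. Several textbook programmes are known to follow such conditions: the enzymes of foreign-compound metabolism that the aryl hydrocarbon receptor switches on, the BMP and TGF-beta signals that cells secrete to each other, the assembly of ribosomes in the nucleolus, and the respiratory chain of mitochondria. The values below are log2 probe set levels made with RMA by the authors, so that a difference of 1 is a doubling. A probe set was called where limma's adjusted p (Benjamini-Hochberg over 27363 probe sets) was under 0.05. A standard error is given after ±, and n is 3 arrays a group throughout.

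Both groups differed across many genes. Of 27363 probe sets, 1330 were called (4.86%), 660 higher at 16 h (2.41%) and 670 lower (2.45%). The median size of a called difference was 0.61 on the log2 scale, against 0.15 over all probe sets. Among 14324 genes with a symbol of their own, 630 were called (4.4%), 125 higher at 16 h (0.873%) and 505 lower (3.53%). No called gene differed by 2 or more on the log2 scale in either direction. The values of both groups did not overlap in 8196 probe sets (30.0%) and in 4415 genes (30.8%), and 6015 probe sets had an unadjusted p under 0.05, where 1368.15 would be expected with no difference. With 1 array left out of the 12 culture arrays that were fitted together, the number called was 411 without 16 h culture 22, 363 without culture 28, 907 without culture 29, 608 without 6 h culture 6, 828 without culture 13 and 533 without culture 26.

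The arrays of both times also stood apart as a whole. The correlation between arrays was 0.993 to 0.994 within the 16 h group, 0.989 to 0.996 within the 6 h group and 0.978 to 0.989 between them. On the first principal component of the 12 culture arrays, which held 41.3% of the variance, the normoxic 16 h arrays lay at -19.8, -25.3 and -17.7 and the normoxic 6 h arrays at 24.9, 23.5 and 34.9. The hypoxic arrays lay on the same side as the normoxic arrays of their time. The spread of values within an array differed as well: the SD over probe sets was 2.04, 2.08 and 2.09 at 16 h and 2.16, 2.15 and 2.13 at 6 h, with array medians of 6.10 to 6.19 and of 6.02 to 6.08. Dim genes read higher and bright genes lower at 16 h, with a median difference of 0.096, 0.092, -0.13 and -0.12 over 4 bins of equal size from the dimmest to the brightest genes. After quantile normalization these medians were -0.017, -0.0081, -0.060 and -0.020. Across all probe sets 49.6% of the calls were higher at 16 h, and this share was 58.0% after quantile normalization, 61.2% after cyclic loess and 26.6% after median centring. The part of this narrower spread in the calls was not tested.

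**Figure D1:**
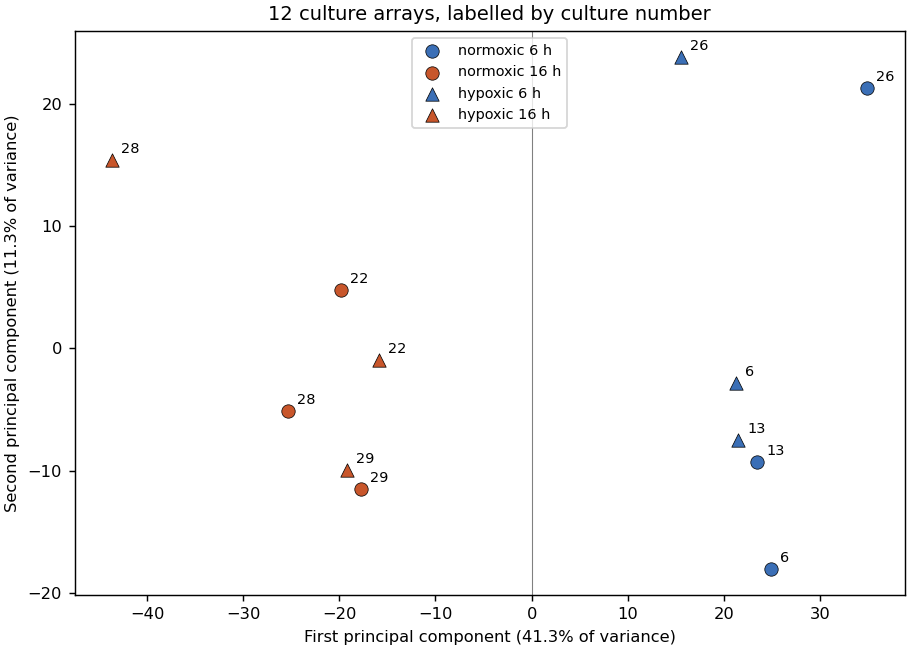
First principal component (41.3% of variance) against the second (11.3%) for the 12 culture arrays; circles are normoxic and triangles hypoxic cultures, blue is 6 h and orange 16 h, and each point carries its culture number. All 16 h arrays lie left of 0 (-43.6 to -15.9) and all 6 h arrays right of it (15.6 to 34.9).

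Cyp1a1 and Cyp1b1, targets of the aryl hydrocarbon receptor, were lower at 16 h. This receptor is a transcription factor that binds planar aromatic compounds and switches on enzymes that oxidize them. Its best known target, Cyp1a1, a cytochrome P450 of foreign-compound metabolism, had log2 levels of 6.91, 6.00 and 6.00 in 6 h cultures 6, 13 and 26 and of 5.09, 4.70 and 5.01 in 16 h cultures 22, 28 and 29. All 16 h arrays lay below all 6 h arrays, and the difference was -1.37 ± 0.23 (2.58-fold, adjusted p = 0.00594). The 16 h values lay below 5.23, the upper edge of the dimmest of the 4 bins of genes. Values there carry no test against background, so the fold is uncertain. Cyp1b1, a related P450 enzyme, read 9.63, 9.59 and 9.17 at 6 h and 8.80, 8.55 and 9.02 at 16 h, a difference of -0.67 ± 0.18 (adjusted p = 0.0461). These were the 2 called members of 6 measured, where 3.53% of all genes were called lower. Of the 6 members 3 were negative and 3 positive, and their median was -0.29, against 0.01 over all genes, and -0.17 without 6 h culture 13. Aldh3a1, an aldehyde dehydrogenase and another target, differed by -0.59 ± 0.38 (adjusted p = 0.386), with 5.77 in 6 h culture 6 within the range at 16 h. The receptor gene Ahr itself read 8.25 to 8.72 at 6 h and 8.44 to 8.54 at 16 h, and its repressor Ahrr differed by 0.19 ± 0.11 (adjusted p = 0.34). Cyp1a1 passed the threshold with any 1 array left out, at adjusted p up to 0.0363. Cyp1b1 did not without culture 22 (0.137), 28 (0.170), 6 (0.138) or 13 (0.125), nor after quantile normalization (0.0865).

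The promoter of Cyp1b1 is shown because the core of the aryl hydrocarbon receptor's binding motif, TNGCGTG, was found in it once; the capitals mark the match. It spans chr6:21094315-21094614 on the plus strand of GRCr8 (RefSeq) and covers 300 bases around the gene's start, most of them upstream. The motif was searched on both strands, and 4.89% of 33469 RefSeq rat promoters of this length hold it. A match is a description of the letters and not of binding. For Cyp1a1 no promoter was analysed here.
Cyp1b1: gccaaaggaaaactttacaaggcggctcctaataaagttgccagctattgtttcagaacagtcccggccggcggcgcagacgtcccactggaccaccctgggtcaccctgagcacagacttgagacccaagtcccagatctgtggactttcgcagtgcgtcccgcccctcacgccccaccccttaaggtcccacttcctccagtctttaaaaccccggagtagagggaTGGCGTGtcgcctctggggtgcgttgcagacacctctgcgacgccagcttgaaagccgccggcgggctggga

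The secreted proteins Bmp2 and Sfrp2 were among the genes with the largest falls. Bmp2, a ligand that signals through SMAD proteins in bone, cartilage and neural development, read 7.94, 7.92 and 8.53 at 6 h and 6.58, 6.85 and 6.56 at 16 h. No value overlapped, and the difference was -1.47 ± 0.20 (2.77-fold, adjusted p = 0.0029). Sfrp2, a secreted protein that binds Wnt ligands, read 6.85, 6.63 and 7.24 at 6 h and 5.42, 5.86 and 5.94 at 16 h (-1.17 ± 0.25, 2.25-fold, adjusted p = 0.021). Of the 16 measured genes in the list of TGF-beta and BMP targets, 2 were lower and 0 higher, where 3.53% of all genes were lower and 0.873% higher. The 2 were Tgfb1, the ligand itself, at -0.51 ± 0.11 (adjusted p = 0.0249), and Smad6, an inhibitor of BMP signalling that BMP induces, at -0.38 ± 0.10 (adjusted p = 0.0464). Id1, a classical BMP target, was at 7.73, 7.66 and 7.86 at 6 h and at 7.08, 6.98 and 7.11 at 16 h, without overlap, and missed the threshold (-0.70 ± 0.20, adjusted p = 0.0581). The median of the list was -0.21, with 5 members above 0 and 11 below, and 0 members were called with all 18 arrays fitted together. The ligand Bmp4 differed by 0.21 ± 0.15 (adjusted p = 0.43) and the inhibitor Nog by -0.08 ± 0.09 (adjusted p = 0.67). Bmp2 passed with any 1 array left out, at adjusted p up to 0.016. Sfrp2 missed it without culture 22 (0.103), 28 (0.0609), 6 (0.055) or 26 (0.0831), Smad6 without any one of the 6 arrays (0.0839 to 0.172), and Tgfb1 without any one but culture 13 (0.0542 to 0.0837).

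In the list of ribosome biogenesis, Wdr46, Rrp9 and Tbl3 were lower at 16 h. These were 3 of 22 measured members, where 3.53% of all genes were called lower and 7.09% and 5.84% of the genes in the upper 2 bins of brightness. No member was called higher, 20 had a negative difference, and the median was -0.24. Wdr46, a nucleolar protein of small-subunit assembly, read 7.71, 7.81 and 8.12 at 6 h and 6.84, 6.34 and 7.05 at 16 h (-1.13 ± 0.19, 2.19-fold, adjusted p = 0.00542). Rrp9, a protein of the U3 small nucleolar particle that guides rRNA processing, read 6.93, 6.86 and 7.18 at 6 h and 6.21, 6.01 and 6.37 at 16 h (-0.79 ± 0.12, adjusted p = 0.00392). Tbl3, a further U3 component, differed by -0.54 ± 0.12 (adjusted p = 0.0217). All 3 genes had every 16 h array below every 6 h array. Rrs1, which acts in large-subunit assembly, was at -0.87 ± 0.24 and missed the threshold (adjusted p = 0.0582), and Myc, a regulator of this programme, was at -0.23 ± 0.13 (adjusted p = 0.301). Npm1 and Ncl, abundant nucleolar proteins, were at 0.04 ± 0.12 and 0.06 ± 0.11. With 1 array left out, 2 to 4 members of the list were called, and with all 18 arrays fitted together 0. Wdr46 and Rrp9 passed with any 1 array left out, but not with all 18 arrays (adjusted p = 0.0755 and 0.0764). Tbl3 missed the threshold without culture 28 (0.0975), 6 (0.0778) or 26 (0.0665).

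Some subunits of the enzymes that make and trim RNA were called lower. Rpp38, a protein of RNase P and RNase MRP, which trim the ends of tRNA and rRNA precursors, read 8.15, 7.97 and 8.47 at 6 h and 7.25, 6.90 and 7.13 at 16 h (-1.10 ± 0.22, 2.15-fold, adjusted p = 0.0144). Its call was lost without culture 28 (0.069) or 26 (0.0637). Among 32 genes whose symbols mark a subunit of RNA polymerases I to III, RNase P or RNase MRP, 5 were lower (15.6%, against 3.53% of all genes) and 0 higher, with a median of -0.35. In the upper 2 bins of brightness, 7.09% and 5.84% of the genes were called lower. Of the 32, 2 were called after quantile normalization, 1 with all 18 arrays, and 0 without 16 h culture 28 or 6 h culture 26. Rpp21 (-0.69 ± 0.14) and the polymerase subunits Polr1c (-0.54 ± 0.13) and Polr2j (-0.46 ± 0.11) were among them. Of 23 subunits of Mediator, the complex that links transcription factors to RNA polymerase II, 4 were lower, led by Med14 at 9.94, 9.82 and 9.74 at 6 h and 8.47, 9.17 and 9.14 at 16 h (-0.91 ± 0.21, adjusted p = 0.0276). Both families were grouped by symbol after the values were seen, and leaving out 1 array left 0 to 5 lower calls in each. Mediator had 0 lower calls with all 18 arrays and without 16 h culture 22 or 28.

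The promoters of Wdr46, Rpp38 and Rrp9 are shown because these 3 genes of RNA processing were called lower. CACGTG, an E-box that MYC and other factors bind and that reads alike on both strands, occurs once in the first and second, in capitals, and was not found in the window of Rrp9. Of 33469 RefSeq rat promoters, 6.42% hold it. The windows are chr20:4947453-4947752 (minus strand, Wdr46), chr17:79823118-79823417 (plus strand, Rpp38) and chr8:115995930-115996229 (plus strand, Rrp9) in GRCr8.
Wdr46: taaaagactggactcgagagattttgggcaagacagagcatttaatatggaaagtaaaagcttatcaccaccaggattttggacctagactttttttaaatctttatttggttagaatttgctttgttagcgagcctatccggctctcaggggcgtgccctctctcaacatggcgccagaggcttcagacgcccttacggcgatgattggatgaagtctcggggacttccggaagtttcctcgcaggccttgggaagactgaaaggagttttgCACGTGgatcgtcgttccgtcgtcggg
Rpp38: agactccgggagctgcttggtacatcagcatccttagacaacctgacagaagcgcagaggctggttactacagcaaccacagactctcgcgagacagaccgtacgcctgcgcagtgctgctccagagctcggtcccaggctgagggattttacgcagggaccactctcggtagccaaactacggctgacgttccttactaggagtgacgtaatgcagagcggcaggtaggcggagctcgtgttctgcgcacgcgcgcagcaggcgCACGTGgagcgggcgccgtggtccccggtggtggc
Rrp9: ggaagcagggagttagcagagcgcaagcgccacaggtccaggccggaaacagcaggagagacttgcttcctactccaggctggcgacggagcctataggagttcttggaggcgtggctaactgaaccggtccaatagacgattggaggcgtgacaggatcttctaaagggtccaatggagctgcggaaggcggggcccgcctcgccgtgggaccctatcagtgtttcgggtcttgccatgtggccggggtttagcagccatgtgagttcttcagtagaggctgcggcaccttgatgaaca

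A minority of mitochondrial genes were called lower at 16 h, against 3.53% of all genes. In the upper 2 bins of brightness, 7.09% and 5.84% of the genes were called lower. Among genes with a mean level over 7, the share was 12.2% in the shortest of 4 bins of genomic length. In the list of oxidative phosphorylation and the TCA cycle, 3 of 21 measured members were lower, 0 were higher and 19 had a negative difference (median -0.17). Sdhb, the iron-sulphur subunit of succinate dehydrogenase, read 9.52, 9.58 and 9.68 at 6 h and 8.89, 9.03 and 9.18 at 16 h (-0.56 ± 0.11, adjusted p = 0.0117). Ndufs3 of complex I (-0.54 ± 0.12, adjusted p = 0.0217) and Uqcrc1 of complex III (-0.50 ± 0.10, adjusted p = 0.0173) also had no overlap. Over the wider set of 37 genes named Nduf, which encode complex I subunits and assembly factors, 7 were lower (18.9%), 0 were higher and 34 had a negative difference (median -0.30). Ndufa10 differed most, from 9.23, 9.33 and 10.30 to 8.43, 8.54 and 8.64 (-1.08 ± 0.23, 2.12-fold, adjusted p = 0.0205), with 6 h culture 26 well above the other arrays of its group. Of the proteins of the mitochondrion's own ribosome, 14 of 67 were lower (20.9%), 0 were higher, 66 had a negative difference and the median was -0.40. Mrpl12 read 7.89, 8.03 and 8.49 at 6 h and 7.37, 7.06 and 7.39 at 16 h (-0.86 ± 0.18, adjusted p = 0.0174), and Mrpl32 differed by -0.83 ± 0.14 (adjusted p = 0.00553).

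These 2 wider mitochondrial families were grouped by symbol after the values were seen. Their medians stayed negative under every scaling tried, at -0.30 after quantile normalization, -0.31 after cyclic loess and -0.49 after median centring for the mitochondrial ribosome. The calls did not hold as well. With all 18 arrays fitted together, 0 were called in the mitochondrial ribosome, in the Nduf set and in the list of oxidative phosphorylation. For the mitochondrial ribosome, 4 of 67 members were called after quantile normalization or cyclic loess, and 2 to 13 with 1 array left out. The Nduf set gave 2 calls after quantile normalization, 1 after cyclic loess and 0 to 7 with 1 array left out. Sdhb missed the threshold without culture 22 (0.0631) or 28 (0.0511), and Ndufa10 without culture 22 (0.0881) or 28 (0.071) and after quantile normalization (0.0601). With 1 array left out, Ndufs3 passed in 2 of 6 fits (adjusted p up to 0.099) and Uqcrc1 in 3 of 6 (up to 0.079). Among 23 measured cytosolic ribosomal proteins, Rpl13 alone was called (-0.53 ± 0.12, adjusted p = 0.0239), although 22 of the 23 had a negative difference (median -0.13). Of 39 proteasome subunits, 2 were lower (5.13%, median -0.20), against 3.53% of all genes and 5.84% of the brightest of the 4 bins. Rpl22l1, a paralogue of a ribosomal protein outside the list, read 9.13, 9.44 and 10.08 at 6 h and 7.99, 8.58 and 8.58 at 16 h (-1.17 ± 0.27, adjusted p = 0.0284). Rpl13 and Rpl22l1 each passed in 2 of 6 fits with 1 array left out (adjusted p up to 0.104 and 0.132).

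The largest fall of any gene was that of Lztfl1, which regulates the traffic of membrane proteins into cilia. It read 7.63, 7.12 and 7.11 at 6 h and 5.25, 5.57 and 5.97 at 16 h, a difference of -1.69 ± 0.33 (3.23-fold, adjusted p = 0.0134). The call was lost without culture 22 (0.0717), 28 (0.0562) or 6 (0.0547). Nap1l2, a histone chaperone of the nucleosome assembly family best known from neurons, read 6.41, 6.5 and 6.21 at 6 h and 5.06, 5.02 and 5.34 at 16 h (-1.23 ± 0.19, 2.35-fold, adjusted p = 0.00452). Its 16 h mean of 5.14 lay below 5.23, the upper edge of the dimmest bin of genes, so its fold is uncertain. Tbcc, a tubulin folding cofactor (-1.17 ± 0.24), Rmdn2, a microtubule-associated protein (-1.14 ± 0.21), Selenom, a selenoprotein of the endoplasmic reticulum (-1.13 ± 0.20), Crisp3, a secreted cysteine-rich protein (-1.12 ± 0.18), and Ccdc107 (-1.30 ± 0.25) were lower by 2.18-fold to 2.46-fold. LOC252890 (-1.07 ± 0.29, adjusted p = 0.0487) missed the threshold with any 1 array left out. Of the 15 genes with the largest falls, 7 stayed past it in all 6 such fits: Bmp2, Cyp1a1, Nap1l2, Rmdn2, Selenom, Wdr46 and Crisp3.

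Single members of other lists were lower, where 3.53% of all genes were called lower. Cry1, a repressor of the circadian clock, read 7.46, 7.21 and 7.64 at 6 h and 6.94, 6.68 and 6.68 at 16 h (-0.67 ± 0.15, adjusted p = 0.0241), the only one called of 14 clock genes. The clock genes Clock, Bmal1 and Per1 were at 0.30 ± 0.16, 0.29 ± 0.17 and 0.24 ± 0.22, with no call. Phlda3, a p53 target that restrains AKT signalling, read 8.53, 8.48 and 8.75 at 6 h and 7.87, 7.76 and 8.01 at 16 h (-0.71 ± 0.13, adjusted p = 0.00937), the only one called of 20 p53 targets. Cdkn1a, the cell cycle inhibitor of that list, was at -0.25 ± 0.24 (adjusted p = 0.568), and the list's median was 0.00. Timp1, an inhibitor of matrix metalloproteinases (-0.70 ± 0.17, adjusted p = 0.0368), was the only call among 25 extracellular matrix genes, Taldo1, of the pentose phosphate pathway (-0.63 ± 0.14, adjusted p = 0.0232), the only one among 23 NRF2 targets, and Idi1, of sterol synthesis (-0.61 ± 0.15, adjusted p = 0.036), the only one among 18 sterol genes. Each of these 5 calls was lost in at least 1 fit without an array, with adjusted p up to 0.095 for Cry1, 0.053 for Phlda3, 0.147 for Timp1, 0.0978 for Taldo1 and 0.145 for Idi1. Twist1, a transcription factor of mesenchymal cells, was at -0.45 ± 0.11 (adjusted p = 0.0362; up to 0.156 with 1 array left out).

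**Figure D2:**
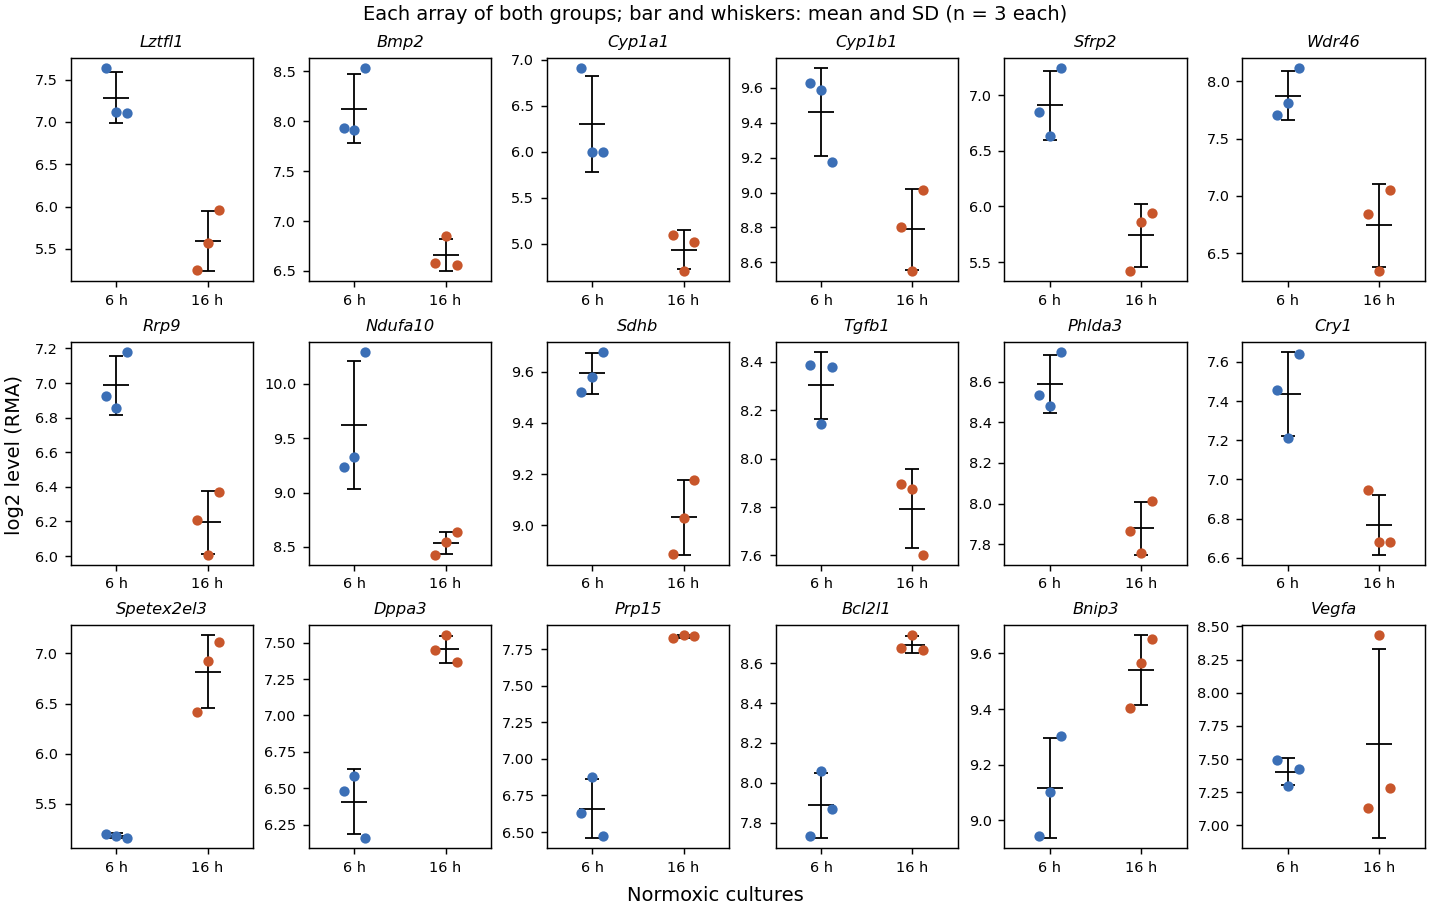
log2 levels of 18 genes in the 3 normoxic 6 h arrays (blue) and the 3 normoxic 16 h arrays (orange); the bar is the mean and the whiskers the SD, and each panel has its own axis, which does not start at 0. All panels but that of Vegfa show groups that do not overlap; Vegfa shows 1 high 16 h array (8.43) beside 7.13 and 7.28.

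Fewer named genes were higher at 16 h. Spetex2el3, of a spermatid-expressed gene family, read 5.21, 5.18 and 5.16 at 6 h and 6.41, 6.93 and 7.12 at 16 h (1.63 ± 0.24, 3.11-fold, adjusted p = 0.00392). Its 6 h values lay below 5.23, the upper edge of the dimmest bin of genes, so its fold is uncertain. Prp15, of the rat proline-rich protein family, read 6.63, 6.88 and 6.48 at 6 h and 7.82, 7.85 and 7.84 at 16 h (1.18 ± 0.14, 2.26-fold, adjusted p = 0.00136). Dppa3, which protects DNA methylation in the early embryo, read 6.48, 6.58 and 6.16 at 6 h and 7.45, 7.55 and 7.37 at 16 h (1.05 ± 0.15, adjusted p = 0.00339). All probe sets of these 3 genes were called in the same direction (4 of 4, 2 of 2 and 5 of 5). They have close relatives or near-identical copies, whose transcripts the probes may share, so which copy was measured is uncertain. The same holds for Stfa3, a stefin-type protease inhibitor (0.83 ± 0.13), Try10, a trypsin (0.72 ± 0.13), and Krtap31-1, a keratin-associated protein (0.68 ± 0.16).

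Bcl2l1, which encodes the apoptosis inhibitor BCL-X, was also higher at 16 h. It read 7.73, 8.06 and 7.87 at 6 h and 8.67, 8.74 and 8.67 at 16 h, with no overlap (0.81 ± 0.18, 1.75-fold, adjusted p = 0.0223). Its second probe set gave 0.55 (adjusted p = 0.0217). With 1 array left out, the first passed only without culture 13 (0.0345) and otherwise stood at 0.0509 to 0.0843. Bnip3, a HIF target of the mitochondrial outer membrane that acts in mitophagy, read 8.95, 9.10 and 9.30 at 6 h and 9.40, 9.57 and 9.65 at 16 h (0.42 ± 0.11, 1.34-fold, adjusted p = 0.0459). It was the only one called of 30 HIF targets, where 0.873% of all genes were called higher. It missed the threshold in 5 of 6 fits without an array (0.0727 to 0.150), with the culture number as a random block (0.0504) and after median centring (0.0957). Mt3, a metallothionein, was at 0.50 ± 0.12 (adjusted p = 0.0285; up to 0.126 with 1 array left out). Samd12 (0.74 ± 0.15), Cox8c, a testis form of a cytochrome oxidase subunit (0.73 ± 0.14), and Fancd2osl1 (0.72 ± 0.16) completed the largest rises outside receptor families. Of the 15 largest rises, 8 passed with any 1 array left out: Spetex2el3, Prp15, Dppa3, Olr1471, Stfa3, Try10, Or1f21 and Or1o11b.

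Odorant receptors, the G-protein coupled receptors of the nose's sensory neurons, made up 39 of the 125 genes higher at 16 h. Of 1104 measured, 39 were higher (3.53%, against 0.873% of all genes), 0 were lower and 931 had a positive difference, with a median of 0.15. In the dimmest of the 4 bins of brightness, 1.28% of the genes were called higher and 0.056% lower. The odorant receptors had a median level of 4.09 at 6 h, within that bin. Olr1471 differed most, at 5.22, 5.32 and 5.36 at 6 h and 6.33, 6.44 and 5.96 at 16 h (0.94 ± 0.16, adjusted p = 0.00607), but only 1 of its 2 probe sets was called. Or2y1g (0.72 ± 0.16), Or1f21 (0.71 ± 0.10) and Or1o11b (0.67 ± 0.11) followed. These genes lie in the dim range, where the median over all genes was also above 0, and they share sequence with each other. Their median was 0.05 after quantile normalization, 0.06 after median centring and 0.07 after cyclic loess, with 11, 16 and 12 called, 7 to 20 were called with 1 array left out, and 2 with all 18 arrays. Vomeronasal receptors, which detect pheromones, had 4 of 135 higher (median 0.07, and -0.02 after median centring). Vom2r13 (0.71 ± 0.16) was among them, with 1 of its 2 probe sets called. Both families were grouped by symbol after the values were seen.

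The largest differences of all were in probe sets without a gene in the platform's annotation. Of 11943 such probe sets, 495 were higher at 16 h (4.14%) and 134 lower (1.12%), whereas of the 15420 listed with a gene 165 were higher (1.07%) and 536 lower (3.48%). All 55 probe sets that were called higher by at least 2 on the log2 scale belong to the unnamed ones, and they hold 28 distinct sets of values, because some probe sets share every value with another. Probe set 10935449 read 3.65, 3.49 and 3.30 at 6 h and 9.55, 10.16 and 10.10 at 16 h (6.46 ± 0.34, adjusted p = 5.00e-07). Probe set 10935445 read 3.76, 3.44 and 3.46 at 6 h and 9.20, 9.95 and 9.93 at 16 h (6.14 ± 0.36, adjusted p = 1.27e-06). At 6 h both lay in the dimmest range of the arrays, where the values carry no test against background, so no fold is given. In hypoxic cultures the first read 4.34, 4.08 and 4.02 at 6 h and 8.56, 10.34 and 10.10 at 16 h. The unnamed probe sets with the largest falls were 10761253 (-1.50 ± 0.34, adjusted p = 0.0249) and 10862359 (-1.49 ± 0.35, adjusted p = 0.0279). What these 4 probe sets measure was not analysed here.

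**Figure D3:**
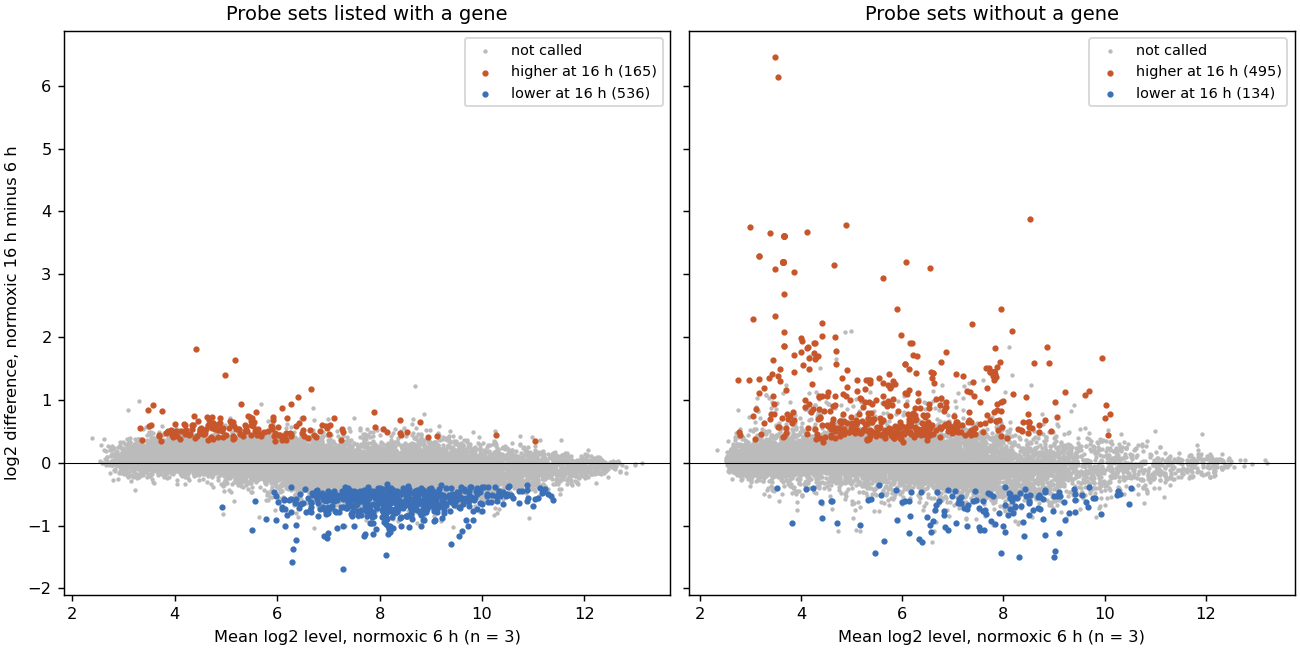
log2 difference, normoxic 16 h minus 6 h, against the mean log2 level at 6 h for probe sets listed with a gene (left) and without one (right); grey points are not called, orange are higher and blue lower at 16 h (adjusted p under 0.05). The 55 differences called at 2 or more all lie on the right, and calls among listed probe sets are mostly lower (536 against 165).

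Programmes that respond to low oxygen or glucose gave few calls between the normoxic cultures, where 4.4% of all genes were called. At that share, lists of this size hold few calls or none. Of 20 genes of glycolysis and glucose uptake, 0 were called in either direction (median 0.05), and 12 were positive. Ldha, the lactate dehydrogenase subunit, was at 0.02 ± 0.10 and the glucose transporter Slc2a1 at 0.11 ± 0.17. Vegfa, the angiogenic ligand, read 7.49, 7.29 and 7.43 at 6 h and 7.13, 8.43 and 7.28 at 16 h (0.21 ± 0.31, adjusted p = 0.735), so that its sign rests on culture 28: the difference was -0.20 without it. Txnip, a thioredoxin inhibitor that follows glucose, read 8.03, 8.08 and 7.58 at 6 h and 7.48, 9.07 and 8.05 at 16 h (0.30 ± 0.51, adjusted p = 0.771), and -0.13 without culture 28. Car9, a carbonic anhydrase and HIF target, read 7.67, 8.01 and 7.74 at 6 h and 8.41, 7.68 and 8.58 at 16 h (0.42 ± 0.19, adjusted p = 0.22), and without culture 28 it passed the threshold (adjusted p = 0.0361). Hif1a was at -0.01 ± 0.12 (adjusted p = 0.981).

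Cell cycle, stress and immune genes gave no call in most lists, where 4.4% of all genes were called. At that share, lists of this size hold few calls or none. Among 25 mitosis genes 0 were called (median -0.01, range -0.61 to 0.22), and among 29 DNA replication genes 0 (median -0.13, 23 of them negative). The counts were also 0 of 30 for the integrated stress response (median 0.04), 0 of 18 for chaperones of the endoplasmic reticulum (median -0.13), 0 of 16 for cytosolic heat shock genes (median -0.13), 0 of 13 for fatty acid synthesis (median 0.06), 0 of 18 for FoxO targets (median 0.11) and 0 of 18 for lysosome and autophagy genes (median -0.09). Of 36 interferon response genes 0 were called (median -0.05), of 29 NF-kB targets 0 (median 0.01), of 23 immediate early genes 0 (median -0.09), of 13 ERK feedback genes 0 (median 0.06) and of 17 YAP and SRF targets 0 (median -0.08). These counts depend on the setting. After median centring, 4 interferon, 2 NF-kB and 2 endoplasmic reticulum chaperone genes were lower, where 913 of 14324 genes were. After quantile normalization, 1 immediate early and 1 DNA replication gene were higher, where 80 of 14324 genes were. Egr1, an immediate early transcription factor, was at 0.78 ± 0.27 (adjusted p = 0.108), with 9.23 in 6 h culture 26 above 9.21 in 16 h culture 29. In the glucocorticoid and metal list Mt3 was the only call of 11 (median 0.06). A difference that missed the threshold with 3 arrays a group is not shown to be absent: the SE of a single gene was 0.10 for Ldha and 0.51 for Txnip.

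**Figure D4:**
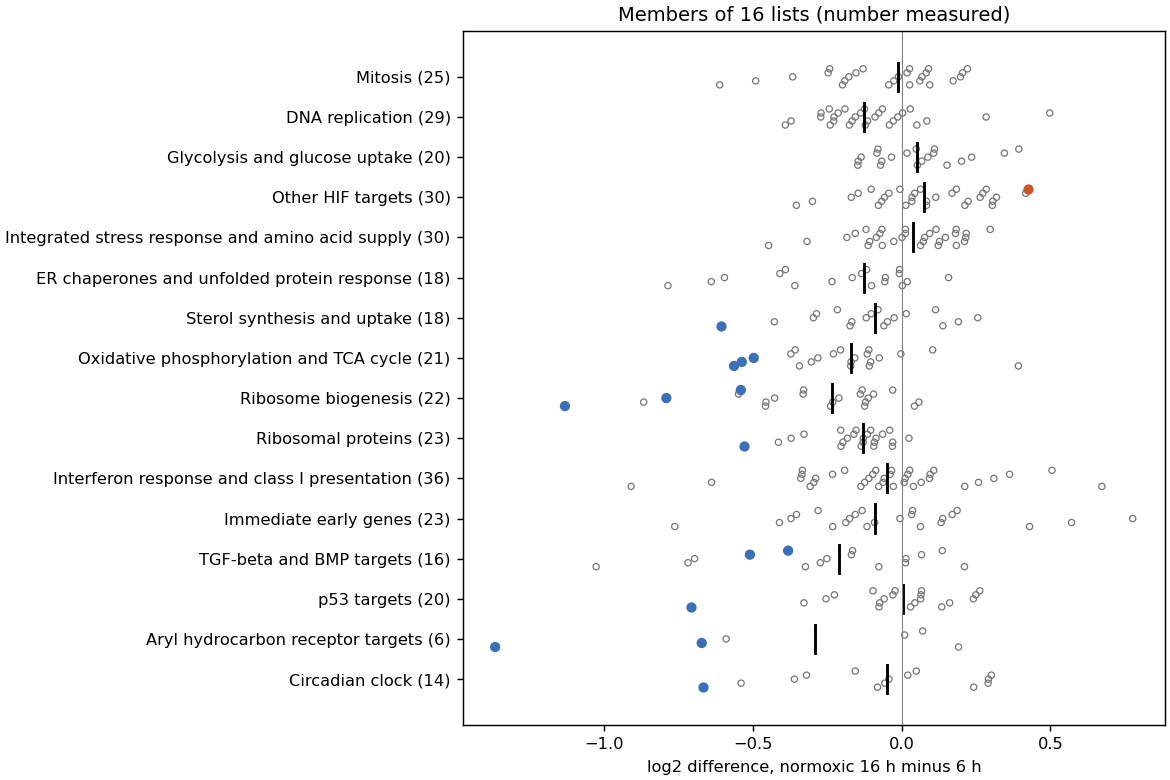
log2 difference, normoxic 16 h minus 6 h, of each measured member of 16 gene lists, with the number measured in parentheses; filled points have an adjusted p under 0.05 (blue lower, orange higher at 16 h), open points do not, and the black line is the median. Medians lie furthest left for aryl hydrocarbon receptor targets (-0.29), ribosome biogenesis (-0.24) and TGF-beta and BMP targets (-0.21).

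The 13 measured mesenchymal markers had a median level of 8.39 at 6 h, from 5.44 to 12.3, against 6.47 over all genes. Twist1, called lower, was the 1 call among them. Vimentin (Vim) had mean log2 levels of 12.3 at 6 h and 12.1 at 16 h, S100a6 of 12.3 and 12.4, Prrx1 of 10.5 and 10.5, and Cd44 of 10.2 and 10.1, with no call. The 12 measured glial and neural stem cell markers had a median level of 6.06 at 6 h, with 0 called. The glial markers Gfap (5.0 and 5.03), S100b (4.55 and 4.49) and Olig1 (4.87 and 4.85) were the dimmest of them, and Pdgfra (8.74 at 6 h) and Vim, which also marks mesenchymal cells, the brightest. The lists of markers of other cells had median levels of 4.97 to 5.58 at 6 h, against 6.47 over all genes. Single members were brighter, up to 8.81 for neurons, 8.02 for macrophages, 7.62 for pericytes and smooth muscle and 7.13 for T and NK cells. Ptprc of leukocytes had means of 4.53 and 4.83, Cd3e of T cells 4.92 and 5.13, Itgam of myeloid cells 3.73 and 3.76 and Cdh5 of endothelium 5.90 and 6.03. Of the 9 lists of other cell types, 7 held no call, where 4.4% of all genes were called. Fcgr3a was higher (0.53 ± 0.12, adjusted p = 0.0217), the 1 call of 10 neutrophil markers, and Ahsp lower (-0.70 ± 0.18, adjusted p = 0.0422), the 1 call of 5 erythroid markers. With 1 array left out, Fcgr3a passed in 3 of 6 fits (adjusted p up to 0.0945) and Ahsp in 1 of 6 (up to 0.151). All 8 endothelial markers were positive (median 0.16, and 0.06 after quantile normalization), as were 12 of 13 T and NK cell markers (median 0.13, and -0.00 after quantile normalization). In RNA from a whole culture, fewer cells of a type and less RNA per cell cannot be told apart.

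Short genes were lower more often than long ones. Among 5910 genes with a mean level over 7 and a known genomic length (99.9% of 5916), the median difference was -0.25, -0.18, -0.098 and -0.025 over 4 bins of equal size from the shortest to the longest. Calls lower at 16 h made up 12.2%, 8.06%, 4.27% and 2.91% of these bins. After quantile normalization the medians were -0.15, -0.084, 0.0053 and 0.082, in the same order but with the 2 bins of longer genes above 0. In the hypoxic cultures the medians were -0.19, -0.13, -0.065 and -0.043. The part of gene length in the lower values of any gene group above was not tested.

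Hypoxic cultures of the same 2 lengths showed mostly the same differences. They share no array with the normoxic comparison, but they carry the same culture numbers and went through the same normalization. In them 801 probe sets were called (2.93%), 365 higher at 16 h (1.33%) and 436 lower (1.59%). Fitted alone, the hypoxic groups gave 320 calls and the normoxic groups 1717. The counts that follow are from the joint fit. Of the 660 probe sets higher in the normoxic cultures, 634 had a positive difference in the hypoxic ones and 235 were called there, which is 35.6% of the normoxic calls and 64.4% of the hypoxic ones. Of the 670 lower, 649 had a negative difference and 187 were called, 27.9% of the normoxic and 42.9% of the hypoxic calls. No probe set was called in opposite directions. The median difference of the probe sets called in normoxic cultures was 0.64 there and 0.45 in hypoxic cultures for those higher, and -0.60 and -0.42 for those lower. Over all probe sets, the 2 differences had a Pearson correlation of 0.764, a description across 27363 probe sets measured on the same arrays.

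Among the genes described above, 5 of the 15 largest falls and 5 of the 15 largest rises were called in hypoxic cultures too. Bmp2 was at -1.21 there (adjusted p = 0.00768), Wdr46 at -1.12 (0.00745), Nap1l2 at -0.83 (0.0332), Spetex2el3 at 1.75 (0.00257), Dppa3 at 1.19 (0.00181) and Prp15 at 0.66 (0.0207). Cyp1a1 was at -0.35 (adjusted p = 0.503), Lztfl1 at -0.39 (0.633), Mrpl32 at -0.08 (0.835) and Try10 at -0.00 (0.994) in hypoxic cultures, against -1.37, -1.69, -0.83 and 0.72 in normoxic ones. Cyp1a1 was already dim in the hypoxic 6 h cultures, at 5.57, 5.09 and 5.24. The difference between both oxygen conditions was tested as an interaction, in a fit that did not pair cultures by number. In it 0 probe sets passed (0.0%), with a smallest adjusted p of 0.982. An unadjusted p under 0.05 was found for 1194, where 1368.15 would be expected with no difference. So none of these genes is shown to differ between both conditions, and a fit paired by culture number was not run. Ribosome biogenesis had a median of -0.52 in hypoxic cultures against -0.24 in normoxic ones, and glycolysis one of 0.25 against 0.05. Whether these list medians differ between the oxygen conditions was not tested.

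**Figure D5:**
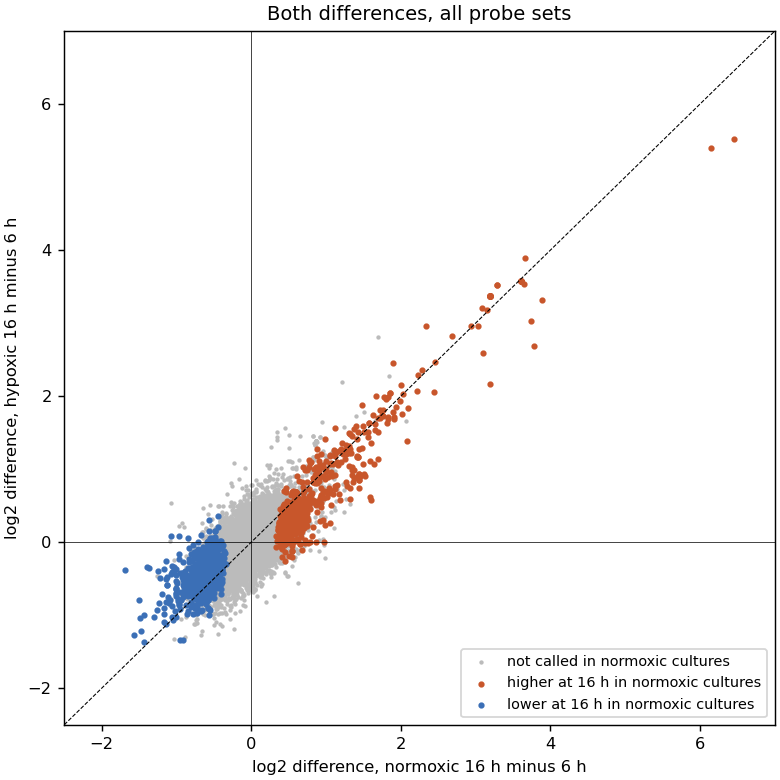
log2 difference, 16 h minus 6 h, in hypoxic cultures (vertical) against that in normoxic cultures (horizontal) for all probe sets; orange and blue are those called higher or lower in normoxic cultures, grey the rest, and the dashed line marks equal differences. Of the orange points 634 of 660 lie above 0, and of the blue points 649 of 670 below it; the 2 points at the upper right are the probe sets at 6.46 and 6.14.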

How the data were processed

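Total RNA of 9L cultures (2 ng a sample) was amplified with the NuGEN Ovation WT-Pico kit and put on Rat Gene 1.0 ST arrays (Affymetrix), as the labels state. The authors deposited RMA values on the log2 scale. Partek 6.5b is the program named in the submitters' processing notes. Joint normalization of the arrays and the annotation version are not given in the sources used here. Precision is limited by the number of arrays.

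Of 27363 probe sets, the platform's annotation gives 15097 exactly 1 symbol, 323 several and 11943 none. 15067 symbols matched a rat gene table by Entrez ID, and 0 were updated. The probe set with the highest mean over the 12 culture arrays stood for a gene (499 genes had several; 14324 genes in all).

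The 12 culture arrays in 4 groups were fitted with limma 3.58.1 (lmFit, eBayes) in R 4.3.3, with two-sided p-values adjusted by Benjamini-Hochberg across the whole array and called under 0.05. The script was tested on simulated data. Named were the 15 largest called differences in each direction without overlap, up to 3 called members of each of 37 lists (736 genes, 649 measured), and Txnip, Vegfa, Slc2a1, Car9, Hif1a, Myc and Cdkn1a. Other list members are named as examples chosen after their values were seen. The samples, lists and rules were chosen with earlier results of these data known.

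Normoxic and hypoxic cultures of 1 time share culture numbers. Deviations from the group means correlated at 0.125 to 0.307 within a number, over the 6 numbers, so that the numbers were taken to pair them. For culture 6 the correlation with another number was higher (0.177 against 0.125). The cultures of 16 h and 6 h share no number, so for 16 h against 6 h the number could enter only as a random block. The interaction could have taken the number as a fixed block, but that fit was not run. Alternatives were the arrays fitted, the block, 3 further scalings, a filter on dim probe sets, the variance model, a minimum size, the probe set of a gene, identical probe sets counted once and each array left out.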

Additional observations from a re-analysis of the deposited data

How the results depend on the processing

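The count of probe sets called between the normoxic cultures was 1330. It was 137 (110 higher, 27 lower) with all 18 arrays fitted in 6 groups, 823 after quantile normalization, 851 after cyclic loess and 246 with a log2 difference of at least 1, and it ran from 363 to 907 with 1 array left out. It stayed within 1.5 times under the other settings: 1717 with both groups alone, 1302 with the replicate block, 1706 after median centring (453 higher, 1253 lower), 1276 without the dimmest 25%, 1267 with trended and robust variance, and 1245 with identical probe sets counted once (chosen after the data were seen). The residual SD had a median of 0.157 over the cultures and 0.203 over all 18 arrays. In hypoxic cultures the count of 801 was 320 with both groups alone, 94 with all 18 arrays, 196 with a log2 difference of at least 1, and 295 to 894 with 1 array left out. The interaction gave 0 under every alternative run, and it could not be fitted with 2 groups alone.

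Signs turned only for genes that had no call: Txnip (-0.13 without 16 h culture 28 to 0.66 without culture 22), Vegfa (-0.20 to 0.45, likewise) and Hif1a, which was at 0.10 after quantile normalization, 0.10 after cyclic loess, and from -0.11 without 6 h culture 26 to 0.05 without 16 h culture 22 and 0.10 without 6 h culture 13. Of 56 named genes, Txnip, Vegfa, Slc2a1, Car9, Hif1a, Myc and Cdkn1a had no call to lose. Of the others, 36 lost their call with all 18 arrays, so most calls did not hold there. The call was lost for 14 after cyclic loess and for 12 after quantile normalization (Vom2r13, Rpl22l1, Ndufa10, LOC252890, Idi1, Tgfb1, Timp1, Taldo1, Cyp1b1, Mt3, Fcgr3a and Twist1). The random block ended 1 call, that of Bnip3, and changed no other call of a named gene. Vom2r13 missed the threshold with the mean of its probe sets (adjusted p = 0.0548).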

Other observations

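Probe set 10935449, which has no gene in the platform's annotation and was higher by 6.46 on the log2 scale in normoxic cultures at 16 h than at 6 h, also varied between the tumours of the series. Its log2 level was 4.12, 5.75 and 7.12 where tumours 1, 2 and 3 were captured as normoxic, and 4.30, 4.14 and 7.48 where they were captured as hypoxic. The cultures read 3.30 to 4.34 at 6 h and 8.56 to 10.34 at 16 h over both oxygen conditions. The 6 h values overlapped the lowest tumour values, and all 16 h values lay above the tumour values.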
